A study of Mus musculus with 9 samples.

Results

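Hepatic expression of 38 genes of fatty acid oxidation, listed by symbol because they encode its enzymes or belong to the known targets and regulators of PPAR alpha, was examined on 9 mouse liver arrays. Of the 38, 36 had a probe set assigned to 1 gene, out of 18193 genes measured in this way, and each gene was read at its brightest probe set, the one with the highest mean over the 9 arrays. They comprised 15 genes of mitochondrial beta oxidation, 8 of the peroxisomal pathway, 3 of omega oxidation, 5 for acyl-CoA thioesterases and carnitine acyl transfer (Acot1, Acot2, Acot3, Acot4 and Crat), and 5 regulators and other PPAR alpha targets. Acsl1 and Cyp4a10 were not analysed here, the latter because its probe set was assigned to more than 1 gene.

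The arrays came from livers of female C57BL/6J mice: 3 controls, 3 treated with amoxicillin and 3 treated with tylosin. Pulsed antibiotic treatment (PAT) gave amoxicillin at 25 mg/kg/day (0.167 mg/ml) or tylosin at 50 mg/kg/day (0.333 mg/ml) through the water bottle in 3 courses, from day 10 to 15, day 28 to 31 and day 37 to 40 of life, and controls received no antibiotic. The doses are the study's estimates from daily water intake. Pups were not yet weaned in the first course, and the study describes their earliest dose as reaching them in the mother's milk. All groups were fed a high-fat diet after the last course. The study's design text gives an age of 22 weeks at collection and the sample labels give 24 weeks. Littermates shared a treatment and a cage and the litter behind each array is not given, so p-values measure only the spread between these samples, and treatment cannot be told apart from litter or cage.

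Fatty acids enter mitochondria as carnitine esters and are shortened there by repeated rounds of beta oxidation, with electrons passed on through the electron transfer flavoprotein. Very long chains are first shortened in peroxisomes, and a minor share is hydroxylated at the omega end by Cyp4a enzymes of the endoplasmic reticulum. PPAR alpha is a nuclear receptor that binds fatty acids, pairs with RXR on DNA and raises transcription of genes in all 3 routes, most strongly in fasting liver.

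Hepatocyte marker genes averaged 12.98 to 13.27 on the log2 scale in the 9 arrays. Arrays did not all look alike: the mean of 13 intestinal epithelial markers was 6.22 in amoxicillin replicate 1 and 6.08 in tylosin replicate 2, then 5.0 in tylosin replicate 1 and 4.49 to 4.65 in the other arrays, although 8 of the 13 stayed under 6 in every array. The intestinal markers did not rise together. Reg3b read 10.18 in amoxicillin replicate 1, 9.72 in tylosin replicate 2 and 7.75 in tylosin replicate 1, against 2.67 to 3.15 elsewhere. Fabp2, the brightest of the 13, read 11.03, 11.13 and 10.9 in the same arrays, not above the controls (11.04 to 11.4). Smooth muscle markers were also highest on average in amoxicillin replicate 1 (5.65) and tylosin replicate 2 (5.93), against 4.2 to 4.52 elsewhere. Among them, Synpo2 and Lmod1 stayed within the range of the controls in both arrays. Kupffer cell and macrophage markers averaged 9.04 in amoxicillin replicate 1 and 9.11 in tylosin replicate 3, against 8.21 to 8.92 in the other 7. These markers did not move together in tylosin replicate 3. Timd4, Cd5l, Marco (10.95), Adgre1 and Cd68 were the highest of the 9 arrays there. Clec4f (7.5), Vsig4 and Folr2 were the lowest, and Csf1r and C1qa lay between. The excess of 3′ over 5′ signal for Actb, a sign of RNA quality, was 1.57 in amoxicillin replicates 1 and 3 and 1.73 in tylosin replicate 2, and 1.21 to 1.49 elsewhere. Their part in the results below was not tested.

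With amoxicillin, 34 of the 36 genes had a mean below that of the control mice, and 31 did after median centring of the arrays. The median log2 fold change was -0.21, against -0.03 over all genes and 0.06 over the 7732 genes with a value above 6 in at least 3 arrays. Single genes seldom separated from the spread between mice. Only Cyp4a31, a fatty acid omega hydroxylase, passed the thresholds of the study's methods (P under 0.01 before adjustment, together with a log2 fold change beyond 0.5 in either direction), and it was lower. With tylosin, 28 of the 36 genes lay below the control mean (22 after median centring), the median log2 fold change was -0.10, and 0 genes were called. Both comparisons use the same 3 control arrays.

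These counts were read against all 18193 genes. Of all genes, 1.28% were called in either direction with amoxicillin and 0.445% were called lower, and 1 called gene of 36 is too few to be set against these shares. With tylosin 1.45% of all genes were called, and between tylosin and amoxicillin 0.11%, where again 0 of the 36 were called. Log2 fold changes below 0 were found for 55.3% of all genes with amoxicillin and 53.3% with tylosin, but for 35.7% and 34% of the genes above the level of 6, among which all of these genes but Cyp4a12a fall. In limma 0 of 45037 probe sets passed an adjusted p of 0.05 in any comparison, while 6657, 6722 and 1335 had an unadjusted p under 0.05 for amoxicillin, tylosin and the difference between them. In bulk liver, fewer cells of a type and less RNA per cell cannot be told apart.

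A looser criterion took in more genes. At an unadjusted p under 0.05 in limma, 8 of the 36 genes were lower with amoxicillin (Cpt2, Acads, Hadhb, Acaa2, Decr1, Eci1, Cyp4a31 and Ppara), a larger share than the 8.34% of all genes, and 2 were with tylosin (Acads and Cyp4a31), against 8.3%. The amoxicillin count was 3 without amoxicillin replicate 1 or after median centring, and 5 with array weights or with the mean of all probe sets. Other settings raised it, to 9 with quantile normalization, 10 with a trended and robust variance or a replicate block, and 13 without amoxicillin replicate 3. All 3 amoxicillin arrays lay below all 3 control arrays for 11 genes, against 11.4% of all genes and 6.51% of those above the level of 6. The 11 were Cpt2, Acadm, Acads, Hadhb, Acaa2, Decr1, Eci1, Ech1, Cyp4a31, Acot2 and Ppara. For 1 gene, Etfa, they lay above all the controls, against 9.52% of all genes. With tylosin, 6 genes lay wholly below (Cpt2, Acads, Acaa2, Cyp4a31, Ppara and Vnn1), against 9.15% of all genes and 4.73% of those above the level of 6, and 0 lay wholly above, against 8.21%.

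**Figure D1:**
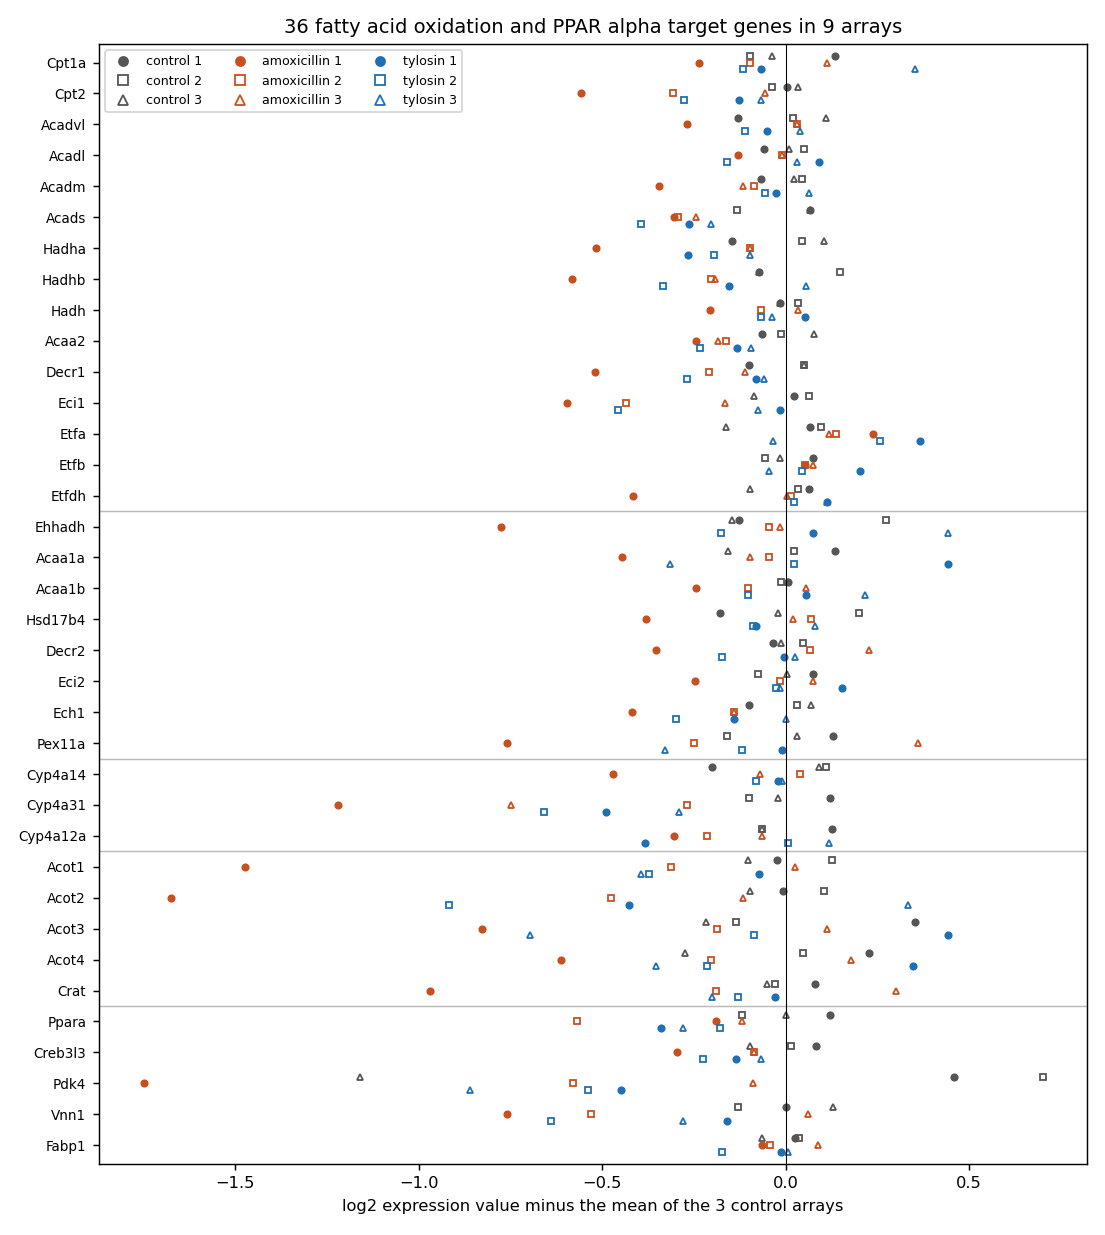
Log2 expression value of each of the 36 genes minus its mean in the 3 control arrays (horizontal axis), 1 point per array, with grey, orange and blue for control, amoxicillin and tylosin and the shape for the replicate number. Horizontal lines divide, from the top, the mitochondrial, peroxisomal, omega, thioesterase and Crat, and regulator genes. Amoxicillin replicate 1 (filled orange circles) is the lowest point for 29 of the 36 genes.

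The amoxicillin values rested largely on 1 liver. Amoxicillin replicate 1 was the lowest of the 9 arrays for 29 of the 36 genes, whereas it was the lowest for 13.8% of all genes and for 8.04% of those above the level of 6. Relative to their control means the genes had a median of -0.42 in this array, -0.12 in amoxicillin replicate 2 and -0.01 in amoxicillin replicate 3. The corresponding medians were -0.04, -0.17 and -0.04 in the 3 tylosin arrays and -0.02 to 0.03 in the control arrays. Without amoxicillin replicate 1 the median log2 fold change with amoxicillin was -0.06, the fold change of 32 genes moved nearer to 0, and 25 of the 36 remained below the control mean. This is also the array with the highest intestinal and the second highest macrophage and smooth muscle marker means. Tylosin replicate 2, with nearly as much intestinal signal and the highest smooth muscle mean, had the lowest median of the tylosin arrays (-0.17). Hepatocyte marker means were not lower in amoxicillin replicate 1 (13.17) and tylosin replicate 2 (13.27), against 12.98 to 13.16 in the other arrays. The part of these cell types in the values was not tested. The median of all genes above the level of 6 was 0.09 in amoxicillin replicate 1.

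**Figure D2:**
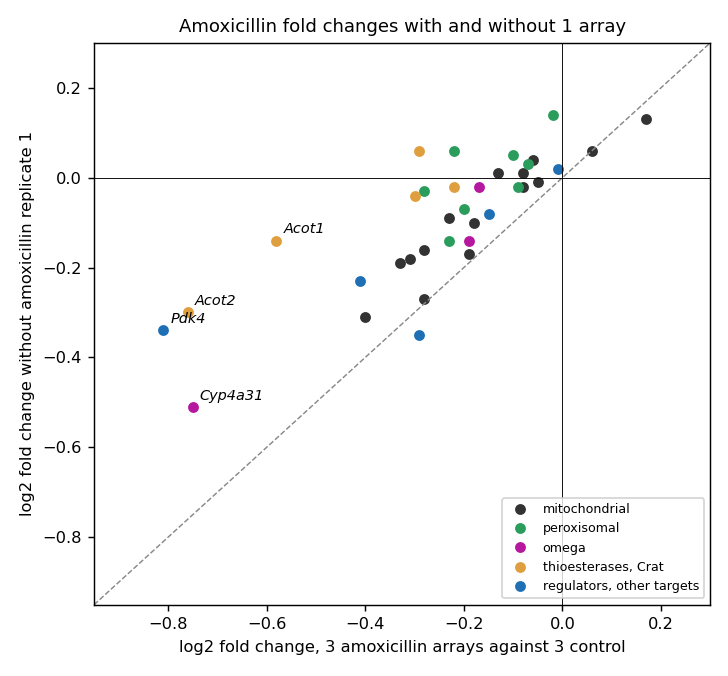
Log2 fold change of each of the 36 genes with amoxicillin from all 3 arrays (horizontal axis) and without amoxicillin replicate 1 (vertical axis), coloured by role. Points above the dashed line of equality have a higher value without this array, and 32 of the 36 came nearer to 0.

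The median log2 fold change of mitochondrial genes was -0.18 (amoxicillin) and -0.04 (tylosin, 0.01 after median centring), and 13 and 11 of the 15 were below the control mean, or 12 and 7 after median centring. None of the 15 was called with either antibiotic. Their array medians relative to the control mean were -0.30, -0.09 and -0.06 with amoxicillin, -0.05, -0.15 and -0.04 with tylosin and -0.01 to 0.03 in control mice. Without amoxicillin replicate 1 the median fold change was -0.09.

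Eci1, the isomerase that moves double bonds of unsaturated acyl-CoA into position for oxidation, had the largest difference of the mitochondrial genes. Its log2 values were 11.72, 11.76 and 11.61 in control mice, 11.10, 11.26 and 11.53 with amoxicillin, and 11.68, 11.24 and 11.62 with tylosin. The amoxicillin livers were all below the controls, and tylosin replicate 2 was low while its group mates were not. The difference from control in limma was -0.40 ± 0.14 (SE) with amoxicillin (adjusted p = 0.26) and -0.19 ± 0.14 with tylosin. The amoxicillin difference was -0.31 without amoxicillin replicate 1 and -0.52, and called, without amoxicillin replicate 3.

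Hadhb, the thiolase subunit of the trifunctional protein, read 11.93, 12.15 and 11.93 in controls, 11.42, 11.80 and 11.81 with amoxicillin and 11.85, 11.67 and 12.06 with tylosin. The amoxicillin arrays did not overlap the controls and the tylosin arrays did, with differences in limma of -0.33 ± 0.14 (SE; adjusted p = 0.32) and -0.14 ± 0.14. Its other probe sets differed by -0.06 and 0.07 with amoxicillin. Hadha, the other subunit of this enzyme, differed by -0.23 with amoxicillin and -0.18 with tylosin.

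Cpt2 releases acyl-CoA from carnitine inside the mitochondrion. It read 11.22, 11.18 and 11.25 in controls, 10.66, 10.91 and 11.16 with amoxicillin and 11.09, 10.94 and 11.15 with tylosin. Every antibiotic-exposed liver was below every control, although amoxicillin replicate 3 and tylosin replicate 3 missed the lowest control by little. The difference in limma was -0.31 ± 0.12 (SE; adjusted p = 0.30) with amoxicillin and -0.16 ± 0.12 with tylosin. Cpt1a, the outer membrane enzyme that makes the carnitine ester and limits the rate of entry, differed by -0.08 (95% interval -0.39 to 0.23) and 0.06 (-0.25 to 0.37). Its other probe sets differed by 0.24 and 0.33 with amoxicillin, so that no direction was given by the 3 probe sets of Cpt1a.

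Among the acyl-CoA dehydrogenases, which take the first step of each round, the short-chain enzyme Acads differed most. Its log2 values were 10.12, 9.92 and 10.12 in control mice, 9.75, 9.76 and 9.81 with amoxicillin and 9.79, 9.66 and 9.85 with tylosin. The 6 antibiotic arrays lay close together and below all 3 controls. The differences in limma were -0.28 ± 0.09 (SE; adjusted p = 0.25) and -0.29 ± 0.09 (adjusted p = 0.23), below the fold change of a call, and the amoxicillin value was -0.27 without amoxicillin replicate 1. The medium-chain Acadm (-0.18 with amoxicillin and -0.01 with tylosin), long-chain Acadl (-0.05 and -0.01) and very-long-chain Acadvl (-0.06 and -0.04) differed less from control.

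Of the remaining mitochondrial enzymes, Decr1, the reductase for polyunsaturated acyl-CoA, differed by -0.28 with amoxicillin and -0.14 with tylosin. The thiolase Acaa2 differed by -0.19 and -0.16, and the hydroxyacyl-CoA dehydrogenase Hadh by -0.08 and -0.02. The other probe sets of Acaa2 differed less, by -0.04 and -0.12 with amoxicillin and by -0.01 and -0.11 with tylosin. Of the electron acceptors, the flavoprotein subunits Etfa (0.17 and 0.20) and Etfb (0.06 and 0.07) had values above 0 with each antibiotic, and the flavoprotein dehydrogenase Etfdh differed by -0.13 and 0.08. None of these values was called. Etfa read 11.53, 11.56 and 11.30 in controls, 11.70, 11.60 and 11.58 with amoxicillin and 11.83, 11.72 and 11.43 with tylosin.

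**Figure D3:**
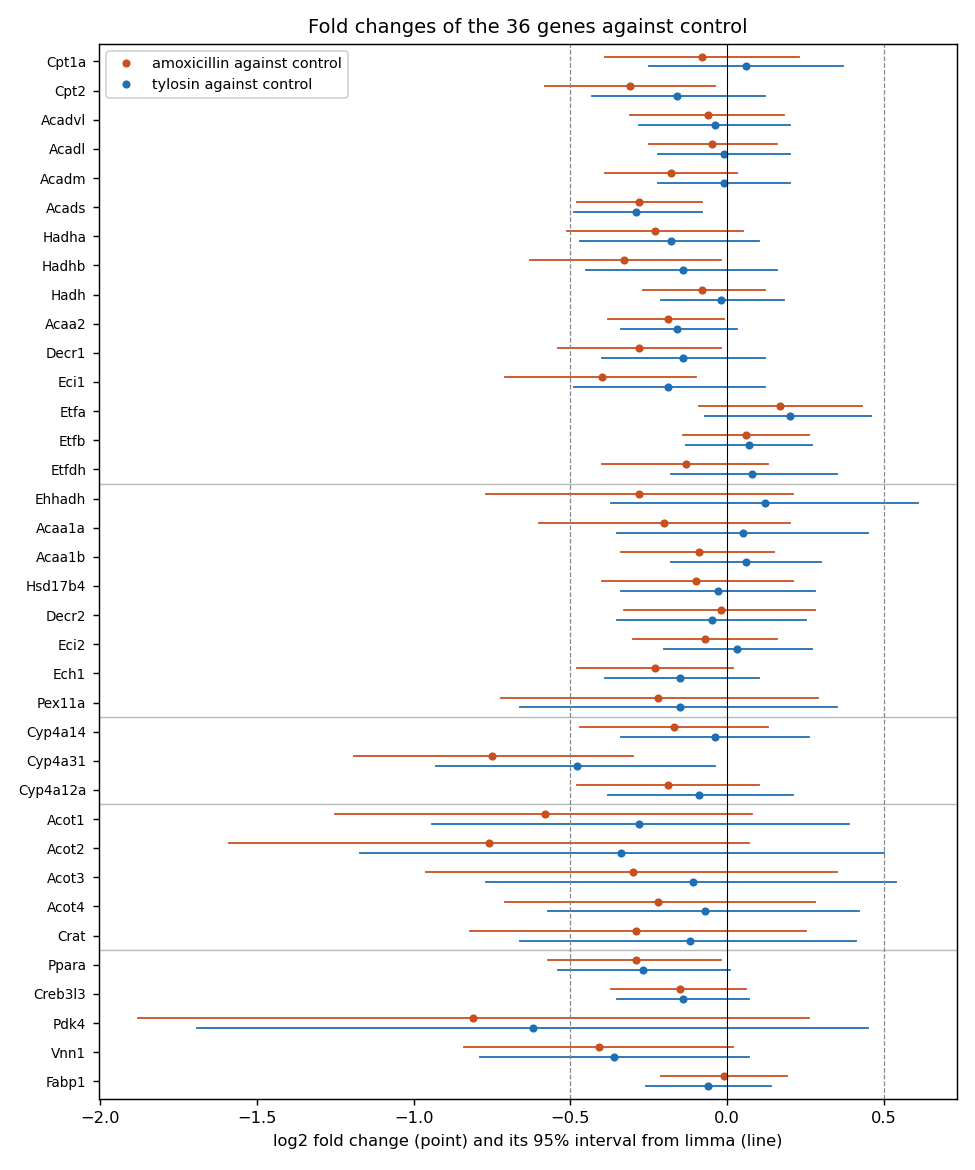
Log2 fold change of the 36 genes against control (points) with 95% intervals from limma (lines), amoxicillin in orange and tylosin in blue, and dashed lines at the threshold of 0.5 in either direction. Intervals with amoxicillin are widest for Pdk4, Acot2, Acot1 and Acot3, and Cyp4a31 is the gene with the most distant interval from 0.

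Peroxisomal genes had medians of -0.15 (amoxicillin) and 0.00 (tylosin) in log2 fold change (-0.09 and 0.05 after median centring), with 8 and 4 of the 8 below control. None was called, and 0 had an unadjusted p under 0.05 with either antibiotic. Amoxicillin replicate 1 was the lowest array for all 8, with a group median of -0.40, while the other amoxicillin arrays were at -0.04 and 0.04 and the tylosin arrays at 0.03, -0.11 and 0.01. The median fold change without this array was 0.00.

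Ehhadh, the bifunctional enzyme of this route and a strongly PPAR alpha dependent gene, read 12.20, 12.60 and 12.18 in controls, 11.55, 12.28 and 12.31 with amoxicillin and 12.40, 12.15 and 12.77 with tylosin. Amoxicillin replicate 1 was far below the controls, and the groups otherwise overlapped. The difference was -0.28 (95% interval -0.77 to 0.21) with amoxicillin and 0.12 (-0.37 to 0.61) with tylosin. Pex11a, which promotes the division of peroxisomes, showed the same form. It read 10.28, 9.99 and 10.18 in controls, 9.39, 9.90 and 10.51 with amoxicillin and 10.14, 10.03 and 9.82 with tylosin, so that the amoxicillin group held both the lowest and the highest of the 9 livers. Its differences were -0.22 ± 0.23 and -0.15 ± 0.23 (SE).

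Ech1, a dienoyl-CoA isomerase, was the peroxisomal gene whose amoxicillin arrays were all below the controls. It read 12.01, 12.14 and 12.18 in controls, 11.69, 11.97 and 11.97 with amoxicillin and 11.97, 11.81 and 12.11 with tylosin, with differences in limma of -0.23 ± 0.11 (SE; adjusted p = 0.36) and -0.15 ± 0.11. The thiolases Acaa1a (-0.20 and 0.05) and Acaa1b (-0.09 and 0.06), the D-bifunctional protein Hsd17b4 (-0.10 and -0.03), the reductase Decr2 (-0.02 and -0.05) and the isomerase Eci2 (-0.07 and 0.03) all differed by 0.20 or less at their brightest probe sets. The second probe set of Acaa1a gave -0.32 with amoxicillin (unadjusted p = 0.041 in limma) and -0.19 with tylosin.

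Omega oxidation was represented by Cyp4a14, Cyp4a31 and Cyp4a12a, whose median log2 fold change was -0.19 (amoxicillin) and -0.09 (tylosin). Both medians are the values of Cyp4a12a, a dim gene, and without it they were -0.46 and -0.26. All 3 were below control with each antibiotic, though after median centring 2 of 3 were with tylosin. Cyp4a31 read 9.03, 8.81 and 8.89 in control mice, 7.69, 8.64 and 8.16 with amoxicillin and 8.42, 8.25 and 8.62 with tylosin. All 6 antibiotic-exposed livers were below all 3 controls, and the amoxicillin livers were spread widely. In limma it fell by 0.75 ± 0.20 (SE) with amoxicillin (95% interval -1.19 to -0.30, 0.59 of the control level, adjusted p = 0.22). With tylosin the difference was -0.48 ± 0.20 (adjusted p = 0.31), which was not called.

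The call of Cyp4a31 depended on which arrays and which probe set were used. It was lost without amoxicillin replicate 1 (-0.51), amoxicillin replicate 3 (-0.75), control replicate 1 (-0.69) or control replicate 3 (-0.76), each with a p just above the threshold (0.011 to 0.016). The other probe set of the gene read 5.73, 5.23 and 5.32 in controls, 5.23, 6.22 and 6.22 with amoxicillin and 6.40, 6.53 and 5.35 with tylosin, and so went the other way (0.46, adjusted p = 0.52, and 0.67, adjusted p = 0.38, in limma). With both probe sets averaged the amoxicillin difference was -0.14. Cyp4a genes are close in sequence, and cross-hybridization between them cannot be separated here.

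Cyp4a14, the member of the family best known for induction by PPAR alpha agonists, read 12.80, 13.11 and 13.09 in controls, 12.53, 13.04 and 12.93 with amoxicillin and 12.98, 12.92 and 12.99 with tylosin. The groups overlapped, with differences of -0.17 (95% interval -0.47 to 0.13) and -0.04 (-0.34 to 0.26). Cyp4a12a is a gene expressed mainly in males, and in these female livers it was the only one of the 36 under 6 in all arrays. It read 3.04, 2.85 and 2.85 in controls, 2.61, 2.70 and 2.85 with amoxicillin and 2.53, 2.92 and 3.03 with tylosin, below the median of all probe sets of each array (3.96 to 4.06), and its differences of -0.19 and -0.09 lie where values carry mostly background.

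**Figure D4:**
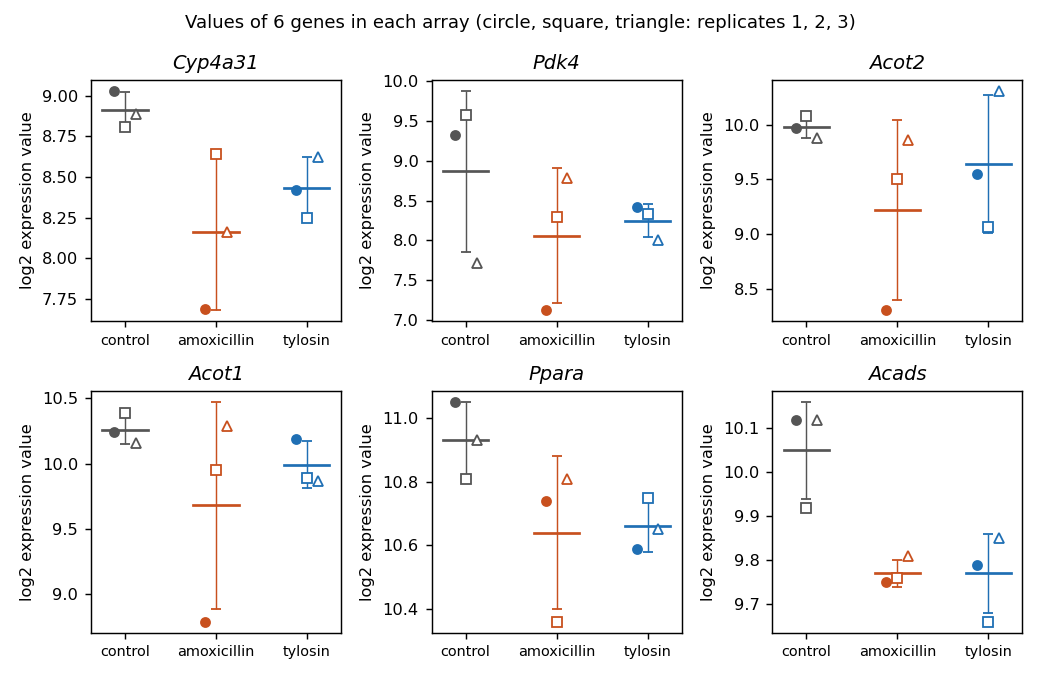
Log2 expression values (vertical axes, which do not start at 0) of Cyp4a31, Pdk4, Acot2, Acot1, Ppara and Acads in each array, with circle, square and triangle for replicates 1, 2 and 3, a bar for the group mean and whiskers for the SD of 3 arrays. Acads and Cyp4a31 have all antibiotic arrays below the controls, and Acot1 and Acot2 have 1 low amoxicillin array.

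The thioesterase genes and Crat had median log2 fold changes of -0.30 (amoxicillin) and -0.12 (tylosin), and all 5 were below control with each antibiotic. None was called and 0 had an unadjusted p under 0.05. Amoxicillin replicate 1 was the lowest array for all 5, with a group median of -0.97, against -0.21 and 0.11 in the other amoxicillin arrays and -0.04, -0.22 and -0.35 with tylosin. Without it the median fold change with amoxicillin was -0.04.

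Acyl-CoA thioesterases split acyl-CoA into free fatty acid and CoA. Acot2, the mitochondrial enzyme, read 9.97, 10.08 and 9.88 in controls, 8.30, 9.5 and 9.86 with amoxicillin and 9.55, 9.06 and 10.31 with tylosin. All amoxicillin arrays were below the controls, replicate 3 by little, and the tylosin arrays lay on both sides. The differences in limma were -0.76 ± 0.38 (SE; adjusted p = 0.37) and -0.34 ± 0.38, and the second probe set of Acot2 gave -0.13 and 0.15. Without amoxicillin replicate 1 the amoxicillin difference was -0.30.

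Acot1, the cytosolic enzyme, is nearly identical in sequence to Acot2, and signal shared between their probe sets cannot be separated here. It read 10.24, 10.39 and 10.16 in controls, 8.79, 9.95 and 10.29 with amoxicillin and 10.19, 9.89 and 9.87 with tylosin. Amoxicillin replicate 1 stood at -1.47 relative to the control mean, and amoxicillin replicate 3 was within the controls. The differences in limma were -0.58 ± 0.30 (SE; adjusted p = 0.39) and -0.28 ± 0.30, and the first was -0.14 without amoxicillin replicate 1 and -0.89, and called, without amoxicillin replicate 3. Acot3, a peroxisomal enzyme, read 11.26, 10.77 and 10.69 in controls, 10.08, 10.72 and 11.02 with amoxicillin and 11.35, 10.82 and 10.21 with tylosin, with overlapping groups and differences of -0.30 and -0.11. The peroxisomal Acot4 differed by -0.22 and -0.07, and Crat, the carnitine acetyltransferase, by -0.29 and -0.12.

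Regulators and other PPAR alpha targets had medians of -0.29 with amoxicillin and -0.27 with tylosin, and all 5 were below control with each antibiotic (4 of 5 with amoxicillin after median centring). Their array medians were -0.29, -0.53 and -0.08 with amoxicillin and -0.16, -0.23 and -0.28 with tylosin, so by this median the lowest array was amoxicillin replicate 2. Gene by gene, amoxicillin replicate 1 was lowest for Creb3l3, Pdk4 and Vnn1, amoxicillin replicate 2 for Ppara and tylosin replicate 2 for Fabp1. The median fold change with amoxicillin was -0.23 without amoxicillin replicate 1.

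Ppara, the receptor itself, read 11.05, 10.81 and 10.93 in control mice, 10.74, 10.36 and 10.81 with amoxicillin and 10.59, 10.75 and 10.65 with tylosin. The tylosin livers were all below the controls, and the highest amoxicillin liver was level with the lowest control to the second decimal. The differences in limma were -0.29 ± 0.12 (SE; adjusted p = 0.32) and -0.27 ± 0.12 (adjusted p = 0.35). Unlike most of the genes, Ppara was further from control without amoxicillin replicate 1 (-0.35). Its 2 other probe sets had the same sign, at -0.30 and -0.50 with amoxicillin and -0.27 and -0.38 with tylosin.

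Pdk4 blocks pyruvate dehydrogenase and so turns fuel use from glucose to fat, and its level follows fasting closely. It had the largest difference of the 36 genes and the widest spread: 9.33, 9.57 and 7.71 in controls, 7.12, 8.29 and 8.78 with amoxicillin and 8.42, 8.33 and 8.01 with tylosin. Control replicate 3 was lower than every tylosin liver and than 2 of the 3 amoxicillin livers, and the groups overlapped. The differences in limma were -0.81 ± 0.48 (SE; 95% interval -1.88 to 0.26, adjusted p = 0.45) and -0.62 ± 0.48 (-1.69 to 0.45). The amoxicillin difference was -0.34 without amoxicillin replicate 1 and -1.39, and called, without control replicate 3.

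Vnn1, the pantetheinase that recycles the vitamin precursor of CoA, read 11.94, 11.81 and 12.07 in controls, 11.18, 11.41 and 12.00 with amoxicillin and 11.78, 11.30 and 11.66 with tylosin. The tylosin livers were all below the controls, and amoxicillin replicate 3 was within them. The differences in limma were -0.41 ± 0.20 (SE; adjusted p = 0.36) and -0.36 ± 0.20, and the second probe set gave -0.63 and -0.57. The amoxicillin difference was -0.23 without amoxicillin replicate 1 and -0.64, and called, without amoxicillin replicate 3. Creb3l3, a liver transcription factor that acts with PPAR alpha, differed by -0.15 and -0.14. Fabp1, the fatty acid binding protein of the hepatocyte cytosol, differed least, by -0.01 (95% interval -0.21 to 0.19) with amoxicillin and -0.06 (-0.26 to 0.14) with tylosin, and its 9 values ran from 14.09 to 14.35, near the top of the range of the arrays.

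PPAR alpha and RXR bind pairs of a hexamer separated by 1 base. The letters AGGTCANAGGTCA were searched on both strands in promoters of RefSeq (GRCm38.p6, 250 bases before to 50 after the start), with up to 2 mismatches to the 12 fixed bases. Promoters were given for 29 of the 38 genes, 32 in all. None held the full motif, which 0.0396% of 32851 mouse promoters did. With up to 1 mismatch 3.12% did, only that of Fabp1, against 0.554% of all, and with up to 2 mismatches 12.5% did, against 3.86% of all. The 4 matches are shown on the strand of each gene, 5′ to 3′ and ending no later than the start, with the match in capitals, to let the levels of these genes be set beside their sequence.
Fabp1, chr6:71199768-71199868, plus strand: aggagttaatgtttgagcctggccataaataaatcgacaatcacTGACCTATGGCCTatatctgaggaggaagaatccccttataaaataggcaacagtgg
Acot4, chr12:84038322-84038378, plus strand: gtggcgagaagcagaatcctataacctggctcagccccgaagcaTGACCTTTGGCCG
Creb3l3, chr10:81092744-81092841, minus strand: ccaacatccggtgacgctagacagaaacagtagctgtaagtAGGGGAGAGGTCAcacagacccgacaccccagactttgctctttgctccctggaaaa
Etfa, chr9:55512264-55512364, minus strand: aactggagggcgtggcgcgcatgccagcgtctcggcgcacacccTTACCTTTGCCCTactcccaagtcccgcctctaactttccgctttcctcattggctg
The match lies 67 to 55 bases before the start in Fabp1, 13 to 1 in Acot4, 209 to 197 in Creb3l3, at 1 of its 2 listed starts, and 77 to 65 in Etfa, on the opposite strand in all but Creb3l3. The amoxicillin differences of these 4 genes were -0.01, -0.22, -0.15 and 0.17, and none was called. A match is a description of these letters and not a site shown to be bound.

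**Figure D5:**
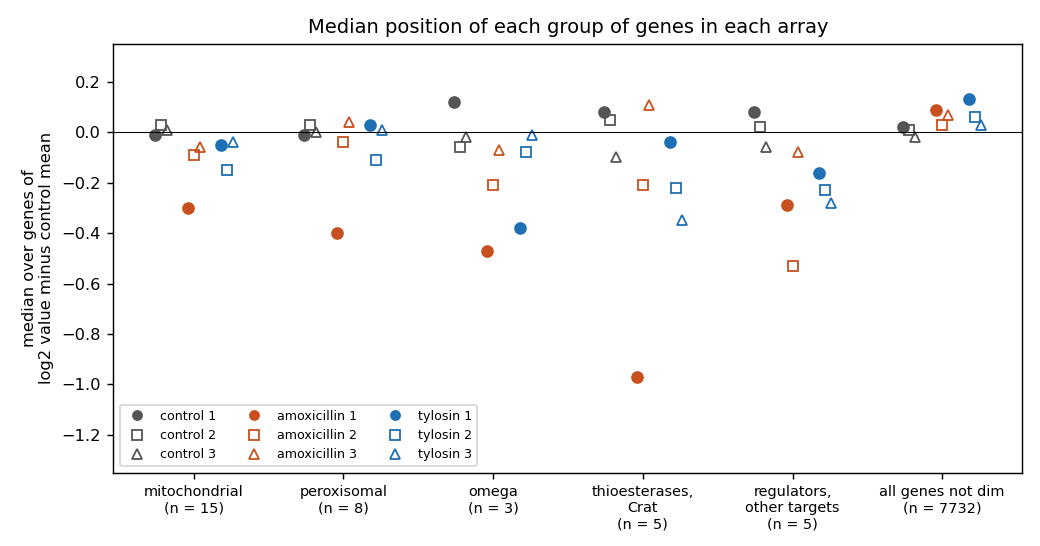
Median over the genes of each role group of the log2 value minus the control mean (vertical axis) in each array, beside the 7732 genes with a value above 6 in at least 3 arrays. Amoxicillin replicate 1 (filled orange circle) is lowest in 4 of the 5 role groups and amoxicillin replicate 2 (open orange square) in the regulators.

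Tylosin and amoxicillin were also compared with each other. Of the 36 genes, 33 had a higher mean with tylosin, with a median log2 difference of 0.12, against 0.01 over all genes, yet 0 were called and 0 had an unadjusted p under 0.05 in limma. Role group medians were 0.06 for the mitochondrial, 0.09 for the peroxisomal, 0.13 for the omega, 0.19 for the thioesterase and Crat genes and 0.03 for the regulator genes. The largest difference was 0.42, for Acot2. Without amoxicillin replicate 1 the median was 0.00 and 17 of the 36 had a lower mean with tylosin, so the direction over the 36 together rested largely on that array. The 17 included 3 of 15 mitochondrial genes (median 0.03), 4 of 8 peroxisomal and 1 of 3 omega genes. They also included all 5 thioesterase and Crat genes and 4 of 5 regulator genes. Without tylosin replicate 2 as well, 11 of the 36 had a lower mean with tylosin (median 0.04).

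Beyond these genes, 150 of 168 other listed genes of the same pathways were measured. With amoxicillin 0 were called higher and 1 lower, with tylosin 1 higher and 1 lower, and their medians were -0.01 and 0.00. Of all genes, 1.28% were called in either direction with amoxicillin and 1.45% with tylosin. No result about these genes as a set is drawn from counts this small. Fabp3, a fatty acid binding protein of muscle, was the gene called lower with amoxicillin (-0.52 ± 0.15, SE; adjusted p = 0.23 in limma), and Acad12, a member of the acyl-CoA dehydrogenase family, that called lower with tylosin (-0.50, adjusted p = 0.23). Both were under 6 in all 9 arrays, and neither call was stable. That of Fabp3 was lost without control replicate 2 or 3 or amoxicillin replicate 1 or 2, with values of -0.55 to -0.42, and that of Acad12 without control replicate 1 or 3, amoxicillin replicate 2 or tylosin replicate 1 or 2, with values of -0.50 to -0.38. Lpl, the lipase that frees fatty acids from circulating triglyceride, was the gene called higher with tylosin.

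Lpl read 7.59, 8.04 and 7.49 in controls, 8.41, 8.31 and 7.85 with amoxicillin and 8.46, 8.25 and 9.25 with tylosin. All tylosin livers were above the controls. Lpl was highest in tylosin replicate 3, the array with the highest macrophage marker mean but the lowest Clec4f, Vsig4 and Folr2. In limma it rose by 0.95 ± 0.25 (SE; adjusted p = 0.19), by 0.65 without tylosin replicate 3, where it was still called, and the call was lost without control replicate 1 (0.89) or control replicate 3 (0.84), without the 3 arrays that stood apart in marker genes (0.75), or with the mean of all its probe sets (0.75). The part of macrophages in this value was not tested.

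Other named partners of the pathway were not called. Slc25a20, the carrier of acylcarnitine across the inner mitochondrial membrane, differed by -0.24 and -0.20, and Plin2, a coat protein of lipid droplets, by -0.16 and 0.00. The hormone Fgf21 differed by -0.45 (95% interval -1.33 to 0.43) and 0.21, the lipase inhibitor Angptl4 by 0.12 and 0.04, and the fatty acid transporter Cd36 by -0.01 and 0.52 (adjusted p = 0.37 in limma). Ppargc1a, a coactivator of PPAR alpha, read 7.88, 6.85 and 7.42 in controls, 8.36, 8.34 and 7.97 with amoxicillin and 8.95, 8.27 and 7.63 with tylosin, with differences in limma of 0.84 ± 0.32 (SE; adjusted p = 0.29) and 0.90 ± 0.32 (adjusted p = 0.26), neither called.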

How the data were processed

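Liver total RNA from 9 mice was labelled with a 3′ IVT Express kit and hybridized to Affymetrix mouse whole-genome arrays, 1 per mouse. Before deposit the authors ran RMA from the affy package (versions not given in the sources used here), and the deposited values are its log2 expression values, here from 2 to 14.71. Array signal carries no read depth, and the number of arrays limits the precision. The 95% intervals of the amoxicillin differences were 0.18 to 1.07 wide on either side.

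Of 45101 probe sets, 64 manufacturer's controls were left out. Of all probe sets, 34958 carry 1 gene symbol in the platform annotation, 932 carry several and 9211 are unnamed here. A gene was read at the single-symbol probe set with the highest mean over the 9 arrays. Of the 36 genes, 18 had 1 probe set and 18 had more, 60 in all, and 19 of the 24 other probe sets had the same sign with amoxicillin. For 5 genes the brightest probe set is of a type that can detect related transcripts.

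Contrasts between groups were tested in limma 3.58.1 (R 4.3.3), from 1 fit of group means to all 9 arrays and 45037 probe sets, with Benjamini-Hochberg adjustment over all of them. As in the study's methods, a call needed P under 0.01 before adjustment and a log2 fold change beyond 0.5 in either direction. The fit was tested on simulated data. A dim gene had a log2 value over 6 in fewer than 3 arrays. All 36 genes are named. Values in every array are given for called genes and for the 3 of each role group with the largest absolute log2 fold change (Acads and Etfa were added after their values were seen), and of the other pathway genes those called and a fixed few are named. Members, lists and tests were chosen with earlier results of these data known.

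Alternatives were other thresholds, median centring, quantile normalization, a filter on dim probe sets, a trended and robust variance, array weights, only the groups compared, the mean of all probe sets, a replicate block, and arrays left out singly and together. Plots used matplotlib 3.10.9 in Python 3.11.15.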

Additional observations from a re-analysis of the deposited data

Results flagged for a closer look

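A signal outside the main measurement was found for Ppara, in a probe set that was not its brightest. This probe set read 10.17, 9.89 and 10.09 in control mice, 9.51, 9.34 and 9.77 with amoxicillin and 9.52, 9.73 and 9.75 with tylosin, all 6 antibiotic arrays below the controls. It fell by 0.50 ± 0.13 (SE; log2 fold change -0.50, adjusted p = 0.21 in limma) with amoxicillin, which passed the thresholds of a call, and differed by -0.38 ± 0.13 (adjusted p = 0.24) with tylosin, which did not. The amoxicillin value is close to the threshold of 0.5, and the call was not recomputed with arrays left out. It was the only 1 of the 24 other probe sets of these genes to be called in any comparison. Of all genes, read at their brightest probe sets, 1.28% were called with amoxicillin, 1.45% with tylosin and 0.11% between the antibiotics. A single call among 24 probe sets is too few to be set against these shares. With 3 arrays in each group, no group was large enough for single arrays to be tested as outliers.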

How the results depend on the processing

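Of 180 recomputed counts and medians, 163 were counts within 1.5 times the reported one or medians that moved by less than the SD between arrays. Medians near 0 changed sign among these: with tylosin the mitochondrial median (-0.04) was 0.01 after median centring, and the peroxisomal median (0.00) ran from -0.06 to 0.05. Many of the 180 could not move, so 163 is no measure of stability. Leaving out a tylosin array cannot alter the amoxicillin medians, nor an amoxicillin array the tylosin medians. A trended variance, a fit to only the groups compared and a replicate block leave every fold change as it was. The count of genes called with amoxicillin, 1 as reported, was 0 at an adjusted p under 0.05, at a log2 fold change over 1, with the mean of all probe sets, without both arrays high in intestinal transcripts (amoxicillin replicate 1 and tylosin replicate 2), and without these and tylosin replicate 3. It ran from 0 to 3 when 1 array was left out: 0 without control replicate 1 or amoxicillin replicate 1, and 3 (Acot1, Eci1 and Vnn1) without amoxicillin replicate 3. Without control replicate 3 it was 1, with Pdk4 in place of Cyp4a31. The counts with tylosin and between the antibiotics were 0 throughout. The mitochondrial median with amoxicillin (-0.18) was -0.09, and the peroxisomal median (-0.15) was 0.00, without both or all 3 of these arrays. Leaving out 1 array gave -0.21 to -0.09 for the mitochondrial and -0.21 to 0.00 for the peroxisomal median. With the filter on dim probe sets, which removes Cyp4a12a, the omega medians were -0.46 with amoxicillin and -0.26 with tylosin, and without the 3 arrays the latter was -0.38. Of 2049 values of single genes, many of which could not move for the same reasons, 149 of uncalled genes changed sign, and 0 changed sign with a call.

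Residuals correlated above 0.1 in 2 of the 9 pairs of arrays that share a replicate number, with values from -0.25 to 0.15. Pairs with different numbers were not compared, so whether the replicate numbers pair the samples was not settled. Every group holds each replicate number, so a replicate block leaves all log2 fold changes and medians as they were, and only p-values could differ. With this block Cyp4a31 (-0.75) was still called, and the counts of called genes were 1, 0 and 0. The widest interval, that of Pdk4, reached 1.07 on either side, so a log2 difference below 1 in such a gene was not detectable with 3 arrays per group.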
